A study of Homo sapiens with 16 samples.

Results

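The genes described here are the expressed members of the human ZNF series, zinc finger genes whose symbol is ZNF followed by a number. A gene was taken when it reached at least 1 TPM (a gene's share of a library, corrected for its length, on a scale with the same total in every library) in all 6 rRNA-depleted libraries of the study, and 291 of the 476 ZNF genes in a table of 60669 genes did so. Of the other 185 ZNF genes, 43 stayed under 1 TPM in all 6 libraries and 37 of these were listed at 0 in each. The members were thus chosen by their TPM values in these 6 libraries, and a member had to be present under both labels. All 291 are protein coding in GENCODE 29, they lie on 21 chromosomes, and 129 of them are on chromosome 19.

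The libraries came from HMC3, an established human line that its labels call a microglial cell, either wild type or with a knockout of METTL3, the catalytic subunit of the enzyme that places N6-methyladenosine (m6A) on RNA. Both genotypes were profiled in 2 ways from 100 ng of total RNA: after removal of ribosomal RNA with a directional kit (3 wild-type and 3 knockout libraries), and from poly(A) RNA by Smart-seq2 (5 and 5 libraries). No drug, time course or other allele is named, and whether the knockout cells are 1 clone, or whether replicates are separate cultures, is not given in the sources used here, so the p-values measure the spread between these libraries, which may be technical. Each comparison is knockout against wild type within 1 library type.

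METTL3 mRNA checked the label: its values were 31.2, 31.6 and 25.4 TPM in wild-type and 39.2, 39.96 and 42.7 TPM in knockout rRNA-depleted libraries (log2 change 0.48, limma adjusted p = 0.106). Under the knockout label its mRNA did not fall, which says nothing of the protein. The rRNA-depleted libraries were shallow, with 266157 to 487272 reads recovered from the TPM values of wild-type libraries and 512627 to 1267171 from those labelled knockout. Libraries 1 and 2 labelled knockout did not differ detectably beyond the sampling noise of their reads (chi-square per degree of freedom 1.02, p = 0.065) and were counted as 1 sample, which leaves 3 wild-type and 2 knockout samples. Of 14 microglial marker genes, 11 were listed at 0 in all 6 libraries, AIF1, CX3CR1, P2RY12 and TMEM119 among them, and 1 reached 1 TPM in each. The summed TPM of fibroblast or pericyte markers ranged from 10226 to 12698 in wild-type libraries and from 912 to 1032 in knockout ones, and that of epithelial markers from 730 to 804 and from 334 to 340. Of the 9 entries matched to 8 fibroblast or pericyte symbols, 3 reached 1 TPM in all 6 libraries, and FAP and LUM were 0 in each. Of the 4 epithelial genes 2 reached it. The neuron sum ranged from 3.20 to 4.67 in wild type and from 11.6 to 13.99 in knockout. Endothelial and astrocyte sums overlapped between genotypes. The fibroblast or pericyte, epithelial and neuron sums moved with genotype, and their part in the changes of ZNF genes was not tested.

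Most ZNF proteins are built from C2H2 zinc fingers, short modules in which a pair of cysteines and a pair of histidines hold a zinc ion while a helix reads a few bases of DNA. Fingers follow each other in tandem, joined by a conserved linker that reads TGEKP in the protein code. The largest class carries a KRAB domain, which recruits the corepressor TRIM28 (KAP1) and through it the histone methyltransferase SETDB1 and HP1 proteins, and many of its members silence transposable elements. Such genes arose by repeated duplication and lie in clusters, above all on chromosome 19. Other ZNF genes encode proteins with single or scattered fingers that bind RNA, act on ribosomes or serve as cofactors.

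The finger repeat can be read directly in the transcripts. The 5 stretches below each run from the start of 1 linker to the end of the next and so span 1 finger. They come from the coding sequence of GENCODE 29 transcripts on GRCh38, are written along the gene's own strand, and are shown for genes that fell (ZNF708, ZNF431 and ZNF850) or rose (ZNF189 and ZNF184) in the rRNA-depleted libraries. The capitals mark the match to the nucleotide form of the linker. ZNF708 (chr19:21294298-21294395, minus strand), ZNF431 (chr19:21183066-21183163, plus strand), ZNF189 (chr9:101408531-101408628, plus strand), ZNF184 (chr6:27452729-27452826, minus strand) and ZNF850 (chr19:36750117-36750214, minus strand) read:
ZNF708: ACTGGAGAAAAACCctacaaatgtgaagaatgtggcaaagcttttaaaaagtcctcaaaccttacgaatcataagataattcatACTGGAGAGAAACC
ZNF431: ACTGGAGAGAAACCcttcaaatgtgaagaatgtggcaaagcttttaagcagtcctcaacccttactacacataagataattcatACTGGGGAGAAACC
ZNF189: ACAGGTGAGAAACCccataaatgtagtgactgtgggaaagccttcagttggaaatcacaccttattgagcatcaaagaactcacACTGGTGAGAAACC
ZNF184: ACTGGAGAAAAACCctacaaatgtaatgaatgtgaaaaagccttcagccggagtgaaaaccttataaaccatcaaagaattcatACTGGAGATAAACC
ZNF850: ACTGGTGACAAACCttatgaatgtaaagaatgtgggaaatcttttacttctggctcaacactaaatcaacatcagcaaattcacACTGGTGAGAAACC

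The linker, a pattern of 14 letters with several free positions, was searched on the sense strand of coding sequences. At least 1 match was present in 213 of the 291 members (73.2%), against 2.8% of the 19684 protein-coding genes of GENCODE 29, and 115 members (39.5%) held 5 or more. The median member had 3 matches and ZNF850 had the most, 25. Of 1059 neighbouring pairs of matches, 662 (62.5%) were 84 bases apart, the length of 28 codons and of the printed repeats. The last 5 letters of the linker can read AAACC, 1 of the forms of the DRACH sequence in which METTL3 methylates the central A, and 897 of the 1272 linker matches (70.5%) did. AAACC occurred at a median of 1.96 per kilobase of member transcript against 0.94 over all protein-coding genes, whereas GGACT, the form most often linked to m6A, occurred at 0.81 against 0.94. A match of letters says nothing of whether a site was methylated, and methylation was not measured here.

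Gene structure was compared as well. A single exon made up 82.7% of the median member's transcript, against 51.5% over all protein-coding genes, and it was the last exon in 94.2% of members. The share varied widely, from 9.66% in ZNF335, with 28 exons, to the whole transcript in ZNF580, ZNF594 and ZNF623, which have 1. Its median was 65.3% in members with no linker match and 86.1% in those with 5 or more. A long terminal exon that encodes all the fingers is the usual form of a C2H2 gene.

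Members were transcribed at low to moderate levels. Their median level was 11.7, 10.3 and 11.5 TPM in wild type, and 12.99, 12.7 and 10.97 TPM in those labelled knockout. Behind these medians lay 6 to 11 reads per gene in wild-type libraries and 9 to 25 in knockout ones, so that counting error was large for most members. Summed over the 291 genes, the TPM came to 5782, 5525 and 5944 in wild type and 5280, 5143 and 4701 in knockout, or 0.552% to 0.594% and 0.470% to 0.528% of each library. The summed share did not overlap between the genotypes and was lower in all 3 knockout libraries, of which the first pair was averaged in the tests. A sum weighs abundant members most, so it does not show a fall of members in general. The median member level overlapped, at 10.3 to 11.7 TPM in wild type and 10.97 to 12.99 TPM in knockout. The same sum over a like set of other genes is not given here. At the rule's edge, ZNF410, ZNF570 and ZNF74 entered with lowest values of 1.04, 1.03 and 1.03 TPM, while ZNF772, ZNF248 and ZNF334 stayed out with 0.98, 0.97 and 0.94 TPM.

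The 10 members with the highest mean level were ZNF622, ZNF714, ZNF768, ZNF217, ZNF598, ZNF121, ZNF282, ZNF587, ZNF106 and ZNF330, and several of them are not classical DNA-binding finger proteins. ZNF622, which acts in maturation of the large ribosomal subunit, read 213, 219 and 169 TPM in wild type and 114, 103 and 91.2 TPM in knockout. It fell by 0.99 on the log2 scale (SE 0.16, limma adjusted p = 0.00959), with no overlap between genotypes. ZNF598, the ubiquitin ligase that marks collided ribosomes, read 87.4, 79.2 and 75.1 TPM in wild type and 62.7, 64.7 and 74.2 TPM in knockout. Although its libraries did not overlap either, its log2 change of -0.22 did not pass the test (limma adjusted p = 0.274). ZNF598 was called lower with median ratio scaling (-0.57, limma adjusted p = 0.0391) and voom on recovered reads (-0.55, 0.0111). With the GC trend removed it changed by 0.33 and was not called (0.186). ZNF217, a repressor amplified in breast and other tumours, had overlapping values of 90.5, 92.1 and 79.4 TPM and 96.5, 94.8 and 74.2 TPM (log2 change -0.05, limma adjusted p = 0.841). ZNF330, a nucleolar protein, fell from 126, 85.7 and 99.2 TPM to 31.7, 48.6 and 25.5 TPM (log2 change -1.65, SE 0.26, limma adjusted p = 0.00896). ZNF106, an RNA-binding protein, read 63.2, 63.6 and 54.4 TPM and 85.9, 79.6 and 79.3 TPM, without overlap, and its log2 change of 0.42 did not pass the test (limma adjusted p = 0.0664).

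The rRNA-depleted libraries were compared between genotypes for every gene. Of the 291 members, 26 rose and 43 fell at a limma adjusted p under 0.05, and 222 were not called. Over all 14789 genes tested 22.9% rose and 12.4% fell, and over the 10434 genes that met the same condition of 1 TPM in all 6 libraries 25.7% rose and 13.5% fell. The members' shares were 8.9% and 14.8%, so the share that rose was below the background and the share that fell was near it. All 69 called members had libraries that did not overlap, as did 70 members in the upward and 75 in the downward direction in total, against 38.4% and 19.9% of all genes tested. The median member changed by 0.14 on the log2(TPM + 1) scale, on which changes of low genes come out too small, while the median of all genes tested was 0.41. The median member thus lay 0.27 below the median gene, and 104 of the 291 lay above it.

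The split of these calls moved with the scaling. With median ratio scaling 14 members rose and 56 fell, with quantile normalization 16 and 60, and with the trend of GC content removed 6 and 65. The calls over all genes tested moved as well, from 3382 higher and 1838 lower to 2364 and 2499 with median ratio scaling. They were 2668 and 2430 with quantile normalization, and 1635 and 2259 of 14669 genes with the GC trend removed. Of the 26 and 43 calls, 5 and 37 were kept with the GC trend removed. None of the 69 called members had a change of the opposite sign in any alternative run, called or not, but leaving out the pair of knockout libraries 1 and 2 left 1 higher and 19 lower calls, and leaving out knockout library 3 left 1 and 14.

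**Figure D1:**
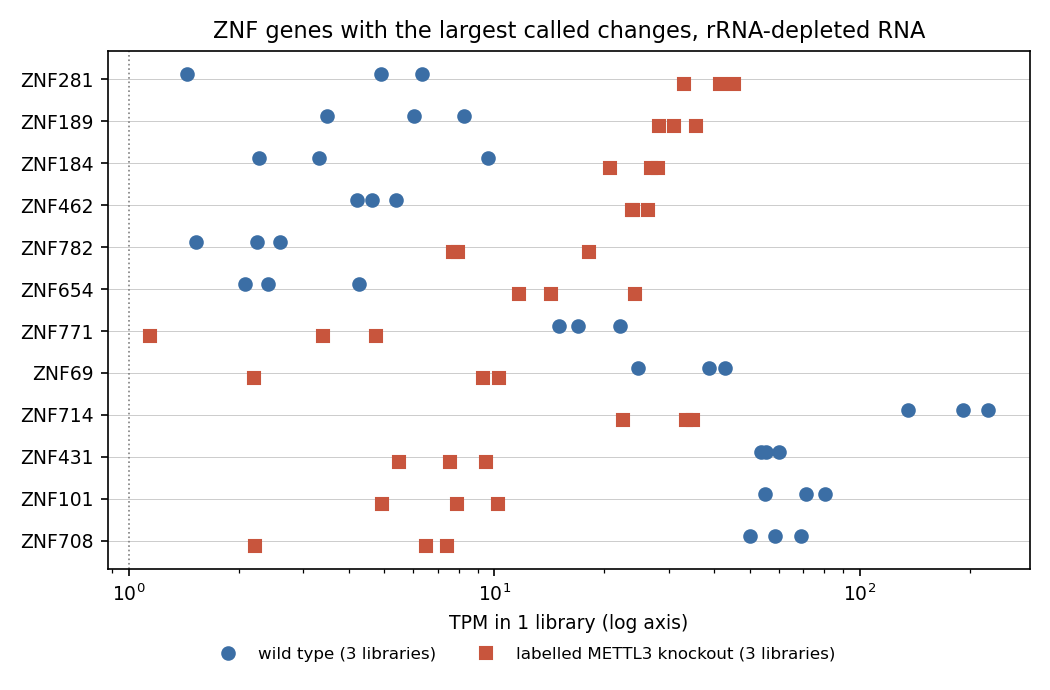
TPM in each rRNA-depleted library (log axis) for the 6 largest rises and 6 largest falls among members with a limma adjusted p under 0.05 and libraries that do not overlap. Circles are the 3 wild-type libraries, squares the 3 libraries labelled knockout, and the dotted line is the 1 TPM of the membership rule. The 2 sets of points are separate in every row, with ZNF281 lowest in wild type at 1.45 TPM and ZNF714 highest at 224 TPM.

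The largest falls were those of KRAB zinc finger genes of chromosome 19. ZNF708 read 50.02, 58.5 and 68.9 TPM in wild type and 7.44, 2.21 and 6.52 TPM in knockout, and so changed by -3.17 on the log2 scale (SE 0.25, limma adjusted p = 0.00179). ZNF101 read 55.1, 80.5 and 71.2 TPM and 10.2, 7.93 and 4.92 TPM (log2 change -3.16, SE 0.32, limma adjusted p = 0.00276). For both genes every knockout library was several-fold below every wild-type library. ZNF431 stood at 53.6, 60.05 and 55.5 TPM against 9.49, 7.56 and 5.48 TPM (log2 change -2.87, SE 0.25, limma adjusted p = 0.00208). ZNF714, the most abundant of the group and the member with the second highest level of all, went from 224, 135 and 192 TPM to 35.05, 33.4 and 22.5 TPM (log2 change -2.65, SE 0.29, limma adjusted p = 0.00323). Its values rested on 105 to 257 reads in wild-type and 28 to 98 in knockout libraries, more than most members had. ZNF708, ZNF101 and ZNF431 stayed called in each alternative, including those that left out libraries.

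ZNF69, another KRAB gene of chromosome 19, read 38.7, 24.7 and 42.9 TPM in wild type and 10.3, 9.34 and 2.203 TPM in knockout (log2 change -2.59, SE 0.59, limma adjusted p = 0.0242). ZNF771, on chromosome 16, read 15.1, 22.03 and 16.99 TPM and 4.76, 3.401 and 1.15 TPM (log2 change -2.51, SE 0.51, limma adjusted p = 0.0169). The lowest value of each came from knockout library 3 and rested on 1 read. Without wild-type library 1 or 3 the call on ZNF69 was lost, with a limma adjusted p of 0.0668 or 0.0672.

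Among members with a known role that fell, ZNF263, a SCAN and KRAB protein that binds promoters, dropped from 60.2, 43.2 and 68.1 TPM to 17.4, 13.01 and 14.9 TPM (log2 change -1.83, SE 0.25, limma adjusted p = 0.00543). ZNF346 (JAZ), which binds double-stranded RNA, went from 54.4, 59.6 and 80.5 TPM to 30.04, 25.7 and 31.7 TPM (log2 change -1.08, SE 0.22, limma adjusted p = 0.017). ZNF593, a ribosome biogenesis protein with a single finger, read 65.2, 74.1 and 58.2 TPM and 27.4, 19.6 and 36.3 TPM (log2 change -1.14, limma adjusted p = 0.0187) and was chosen after its values were seen. Each of these genes had all knockout libraries below all wild-type ones. ZNF587, a KRAB gene with many close relatives on the long arm of chromosome 19, fell from 91.5, 113 and 103 TPM to 35.6, 39.9 and 44.8 TPM (log2 change -1.29, SE 0.16, limma adjusted p = 0.00433). ZNF121 fell less, from 98.7, 95.6 and 94.1 TPM to 53.2, 50.6 and 47.2 TPM, but with little spread inside each genotype (log2 change -0.94, SE 0.12, limma adjusted p = 0.00492). ZNF768, which binds an old family of interspersed repeats, read 101, 117 and 122 TPM and 92.4, 73.2 and 64.7 TPM (log2 change -0.62, limma adjusted p = 0.0383), and its call was lost without any 1 of the wild-type libraries, with limma adjusted p from 0.0508 to 0.0915, and with the GC trend removed (0.321).

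The member that rose most was ZNF281 (ZBP-99), a transcription factor that binds GC-rich promoters and is linked to stem cell and inflammatory genes. It read 1.45, 6.34 and 4.89 TPM in wild type and 45.2, 41.4 and 32.98 TPM in knockout, and so changed by 3.04 on the log2 scale (SE 0.57, limma adjusted p = 0.014). The wild-type values rested on 1 to 4 reads and the knockout values on 25 to 74. Its paralog ZNF148 (ZBP-89) rose as well, from 9.38, 7.83 and 8.49 TPM to 38.4, 35.5 and 29.3 TPM (log2 change 1.83, SE 0.28, limma adjusted p = 0.00748). Neither pair of groups overlapped. With the GC trend removed, ZNF148 changed by 0.57 and was not called (limma adjusted p = 0.149).

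ZNF462, a large chromatin protein needed in development, rose from 4.62, 4.22 and 5.37 TPM to 23.8, 23.9 and 26.3 TPM (log2 change 2.19, SE 0.33, limma adjusted p = 0.00751). ZNF189, a KRAB gene, read 8.25, 6.03 and 3.49 TPM and 28.3, 31.1 and 35.7 TPM (log2 change 2.34, SE 0.42, limma adjusted p = 0.0121). ZNF184, a KRAB gene beside the large histone cluster of chromosome 6, read 2.27, 3.31 and 9.59 TPM and 26.8, 28.1 and 20.7 TPM (log2 change 2.23, SE 0.60, limma adjusted p = 0.0396). ZNF184 had the widest spread of the 3 genes, and without wild-type library 1 or 2 its limma adjusted p was 0.0729 or 0.0782. ZNF654 read 4.28, 2.08 and 2.41 TPM and 24.3, 14.3 and 11.7 TPM (log2 change 2.07, SE 0.48, limma adjusted p = 0.025, and 0.0559 without wild-type library 3). ZNF782 held only 4 reads over the 3 wild-type libraries against 37 over the 3 knockout ones, a ratio per recovered read of 3.81 with an exact 95% interval of 1.37 to 14.7 that covers counting error only. Its TPM read 1.53, 2.24 and 2.59 TPM and 7.98, 7.704 and 18.2 TPM (log2 change 2.08, limma adjusted p = 0.0316), and leaving out any 1 wild-type library lost the call, at limma adjusted p from 0.054 to 0.0706. With the GC trend removed ZNF189, ZNF184, ZNF654 and ZNF782 changed by 1.46, 1.29, 0.83 and 1.21 and were not called (limma adjusted p = 0.0554, 0.164, 0.226 and 0.179). ZNF184 and ZNF782 were not called with median ratio scaling (limma adjusted p = 0.0636 and 0.0559) or quantile normalization (0.0561 and 0.0735) either.

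Several cofactors and RNA-associated members were among those that rose. ZNF638 (NP220), which helps the HUSH complex silence unintegrated retroviral DNA, read 21.01, 15.8 and 16.8 TPM in wild type and 52.1, 50.1 and 35.2 TPM in knockout (log2 change 1.21, limma adjusted p = 0.0209, and 0.0516 without wild-type library 3). ZNF644, which works with WIZ and the histone methyltransferases G9a and GLP, read 9.31, 13.6 and 9.45 TPM and 39.2, 36.4 and 24.6 TPM (log2 change 1.44, limma adjusted p = 0.0249, and 0.0585 or 0.0573 without wild-type library 1 or 3). ZNF592, of the complex that ZMYND8 forms with ZNF592, ZNF687 and ZNF532, rose from 22.6, 19.1 and 13.2 TPM to 36.3, 37.7 and 50.8 TPM (log2 change 1.23, limma adjusted p = 0.0305, and 0.0546 or 0.0504 without wild-type library 2 or 3). Its partners ZNF532 and ZNF687 were not called, with log2 changes of 0.99 and -0.40 (limma adjusted p = 0.116 and 0.15). ZNF687 was called lower with median ratio scaling (-0.74, limma adjusted p = 0.0314), quantile normalization (-0.67, 0.043) and voom on recovered reads (-0.74, 0.00671). ZNF146 (OZF), a protein made of little more than fingers, rose from 20.5, 24.96 and 18.8 TPM to 81.7, 73.99 and 48.3 TPM (log2 change 1.49, SE 0.27, limma adjusted p = 0.013). ZNF24, a SCAN-domain repressor, read 8.58, 6.27 and 9.43 TPM and 35.3, 27.2 and 25.8 TPM (log2 change 1.71, SE 0.32, limma adjusted p = 0.0132). The knockout values of ZNF146 and ZNF24 all lay above their wild-type values, and with the GC trend removed neither was called (log2 changes 0.57 and 0.55, limma adjusted p = 0.16 and 0.201). ZNF638, ZNF644 and ZNF592 also lost their calls in that alternative, with log2 changes of 0.20, 0.29 and 0.97 (limma adjusted p = 0.549, 0.544 and 0.0769). With median ratio scaling ZNF644 and ZNF592 were not called (limma adjusted p = 0.0546 and 0.0865), nor with quantile normalization (0.0531 and 0.0627).

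Other members with established roles did not pass the test. ZNF143, an activator of promoters that carry its binding site, read 11.7, 2.44 and 4.24 TPM in wild type and 13.5, 18.8 and 22.9 TPM in knockout (log2 change 1.72, limma adjusted p = 0.0941). Its paralog ZNF76 had overlapping values and a log2 change of 0.20 (limma adjusted p = 0.763). ZNF274, which brings SETDB1 to the 3′ ends of zinc finger genes, read 11.9, 7.45 and 14.4 TPM and 10.5, 8.22 and 8.52 TPM (log2 change -0.26, limma adjusted p = 0.645). ZNF91, a repressor of SVA elements, was level at 18.4, 11.9 and 21.3 TPM and 20.95, 19.5 and 14.3 TPM, and its log2 change of 0.02 (limma adjusted p = 0.97) became -1.14 with the GC trend removed, where it was called (limma adjusted p = 0.0382). ZNF207 (BuGZ), a spindle protein that binds BUB3, changed by 0.72 (limma adjusted p = 0.0726), ZNF326, of the DBIRD complex that couples transcription and splicing, by 0.14 (0.775), and ZNF335 by 0.31 (0.383). A p that misses the threshold does not show that these genes were equal.

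Calls were then laid out along the genome. On chromosome 19, 4 members rose (ZNF561, ZNF146, ZNF574 and ZNF473) and 21 fell of 129, with a median log2 change of -0.18. On the other chromosomes 22 rose and 22 fell of 162, with a median of 0.25. The 585 other protein-coding genes of chromosome 19 with at least 1 TPM in all 6 libraries had 15.4% higher and 17.6% lower calls and a median of -0.04. Their median GC content was 60.2%, against 42.6% for the ZNF members of that chromosome. On chromosome 16, 8 of 22 members fell and the others were not called, with a median of -0.52. Over all genes with at least 1 TPM in all 6 libraries 13.5% fell, and the other genes of chromosome 16 were not counted. Members of a cluster share ancestry and sequence and are not independent, and no test was made between chromosomes.

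**Figure D2:**
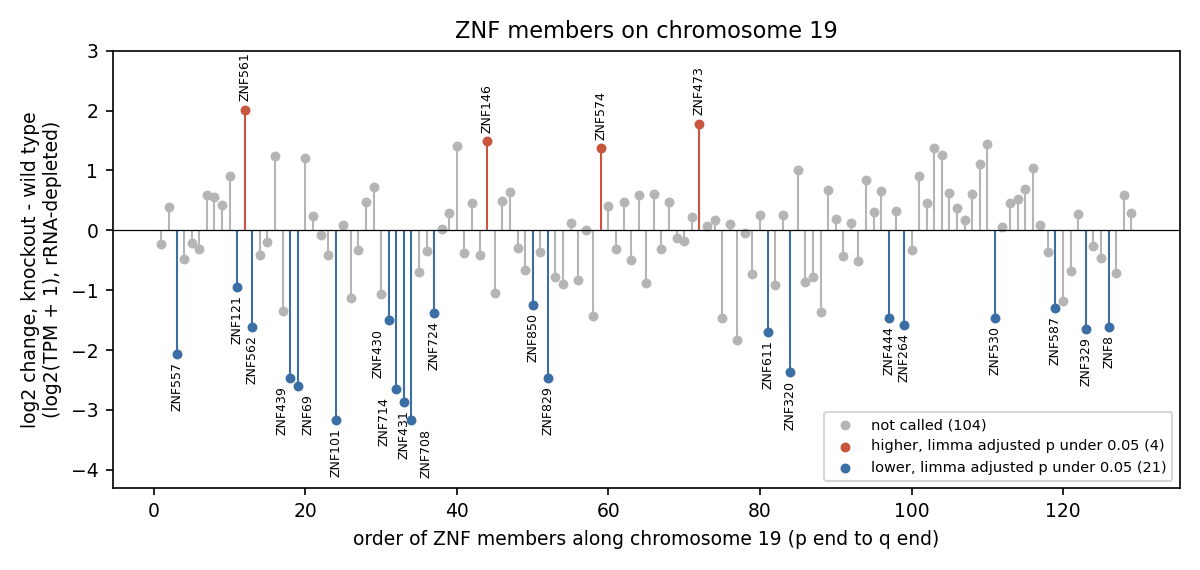
Log2 change (knockout minus wild type on the log2(TPM + 1) scale) of the 129 members on chromosome 19, in their order along the chromosome. Grey stems are members not called, red stems the 4 that rose and blue stems the 21 that fell at a limma adjusted p under 0.05. ZNF430, ZNF714, ZNF431 and ZNF708 are consecutive and all fell, while ZNF561 rose between neighbours that fell.

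Clusters were drawn where members followed each other within 500000 bases, with at least 5 members. Beside them, 25.7% of all genes with at least 1 TPM in all 6 libraries rose and 13.5% fell, with a median log2 change of 0.34. In the cluster at chromosome 19, 20776304 to 21767628 (GRCh38), 4 of 8 members fell, the rest were not called, and the median log2 change was -1.28. The 4 that fell, ZNF430, ZNF714, ZNF431 and ZNF708, lie next to each other among the members. Of ZNF430 the values were 22.8, 15.1 and 23.6 TPM in wild type and 8.32, 6.402 and 5.66 TPM in knockout (log2 change -1.50, limma adjusted p = 0.0244). The largest cluster, at chromosome 19, 57191500 to 58475436, had 31 members, of which 5 fell and the others were not called, with a median of 0.27. Its share of falls was near that of all genes. At chromosome 16, 30378106 to 31084196, 5 of 11 members fell and the others were not called, with a median of -0.57. The median GC content of these 11 was 58.6%. Of all genes with at least 1 TPM in all 6 libraries and 50% GC or more, 20% fell, with a median of -0.07. The clusters named here are a selection that includes those with the largest shares of falls. Among the rest, none of the 11 members at chromosome 19, 43596392 to 44500524, was called. Neither was any of the 5 at chromosome 8, 144720907 to 144950888. At chromosome 19, 51964343 to 53580269, 2 of 17 members fell and the others were not called. Not every cluster was uniform. In the cluster at chromosome 19, 8509678 to 9793180, ZNF561 rose from 6.57, 3.200 and 3.703 TPM to 21.8, 20.3 and 19.97 TPM (log2 change 2.02, limma adjusted p = 0.0187), while its neighbours ZNF121 and ZNF562 fell by 0.94 and 1.61 on the log2 scale. ZNF561 and ZNF562 were chosen after their values were seen.

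Members were also grouped by their number of linker matches. The pattern fixes most of its letters, so a linker spelled otherwise was missed. The number is thus not a count of fingers, and members with no match may hold fingers. The 78 members with no linker match had 12 higher (15.4%) and 13 lower calls (16.7%) and a median log2 change of 0.30. Those with 1 to 4 matches (98 genes) had 8 (8.2%) and 16 (16.3%) and a median of 0.18, and those with 5 or more (115 genes) had 6 (5.2%) and 14 (12.2%) and a median of -0.07. Over genes with at least 1 TPM in all 6 libraries 25.7% rose and 13.5% fell, so the lower shares were near the background in each class. Members with more linker matches also had a lower GC content, with medians of 51.7%, 47.6% and 41.5% in the 3 classes.

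GC content ordered all genes but not the members. Among genes with at least 1 TPM in all 6 libraries and under 42% GC in the longest transcript, the median log2 change was 0.999 over 2497 genes, of which 40.2% rose and 6.2% fell. The 102 members in that class had a median of 0.16, with 14 higher (13.7%) and 13 lower calls (12.7%). Between 42% and 50% GC the medians were 0.64 for 3071 genes and 0.16 for 97 members. At 50% or more they were -0.07 for 4842 genes and 0.11 for 92 members, of which 6 rose (6.5%) and 18 fell (19.6%). In that class 13.9% of all genes rose and 20% fell, so the members' share of falls was near the background. Over genes tested in both library types, Spearman's rho between log2 change and GC content was -0.39 for 12449 genes and -0.04 for 283 members. Genes are not independent replicates, and all points share the same 6 libraries.

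The level of a gene in the poly(A) libraries ordered both sets alike. Members with a mean normalized count under 20 in the authors' deposited table had a median log2 change of -0.33 in the rRNA-depleted libraries (156 genes), against -0.27 for all genes of that class. Of these members 0.6% rose and 17.9% fell, and of all genes in the class 5.4% and 19.8%. From 20 to 50 counts the medians were 0.26 and 0.27. At 50 or more in the authors' deposited table they were 0.72 for 43 members and 0.80 for 5051 genes. There 15 members rose (34.9%) and 4 fell (9.3%), against 43% and 9.7% of all genes in the class. The lowest class held 156 of the 291 members and 3310 of the 10434 genes at large. What ties the poly(A) level to the change was not tested.

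**Figure D3:**
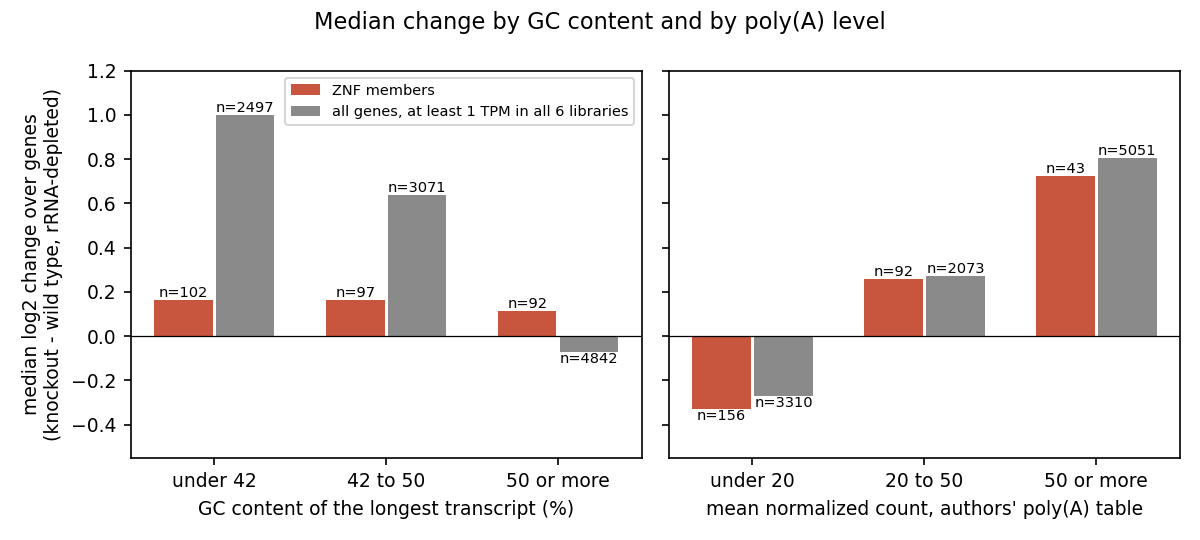
Median log2 change in rRNA-depleted RNA (knockout minus wild type, log2(TPM + 1)) of ZNF members (red bars) and of all genes with at least 1 TPM in all 6 libraries (grey bars), by GC content of the longest transcript on the left and by mean normalized count in the authors' poly(A) table on the right. Numbers over the bars are genes. The bars differ most under 42% GC, at 0.16 for members and 0.999 for all genes, and are close in each poly(A) class.

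The poly(A) libraries gave fewer calls. The authors' deposited table holds an adjusted p for 283 of the 291 members, and at 0.05 it calls 20 of these higher and 12 lower in knockout, where a positive log2 fold change is taken as higher in knockout. The table does not name its numerator, and with the sign turned the split would be 12 higher and 20 lower. At the same threshold the authors' deposited table calls 9.55% of its 14009 genes with an adjusted p higher and 10.3% lower. The members' shares were 7.1% and 4.2%. Their mean normalized counts were low, the median in the authors' deposited table being 17.7. Among the 43 members with 50 counts or more, 39.5% were called in the authors' deposited table, against 35.8% of all genes at that level. The median log2 fold change of members was 0.11, against 0.02 over all genes of the authors' deposited table. That table has no values of single libraries, so the spread behind each fold is known from its standard error alone.

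The 6 members with the largest positive fold changes among those called in the authors' deposited table were ZNF846, ZNF93, ZNF264, ZNF224, ZNF579 and ZNF550. ZNF93, a repressor of L1 elements, had a log2 fold change of 1.24 (SE 0.18, adjusted p = 1.27e-10, mean normalized count 61.5) in the authors' deposited table. In the rRNA-depleted libraries its values ran the other way, 27.5, 29.6 and 20.8 TPM against 17.1, 14.6 and 7.93 TPM, without overlap and without passing the test (log2 change -1.12, limma adjusted p = 0.0672). ZNF93 was called lower in 7 of 16 alternatives, among them median ratio scaling (-1.46, limma adjusted p = 0.0308), the GC trend removed (-2.10, limma adjusted p = 0.00921) and voom on recovered reads (limma adjusted p = 0.00323), with limma adjusted p from 0.00323 to 0.25 over all of them. ZNF846 had the largest fold of the 6, 1.76 on the log2 scale in the authors' deposited table, but from a mean normalized count of 6.66 (SE 0.57, adjusted p = 0.0146). ZNF579 had a log2 fold change of 1.01 (SE 0.26, adjusted p = 0.000967) and ZNF550 one of 0.93 (SE 0.26, adjusted p = 0.0038) in the authors' deposited table. Neither passed the test in rRNA-depleted RNA, where their log2 changes were -0.42 and 1.11 (limma adjusted p = 0.195 and 0.119).

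The most abundant member in poly(A) RNA was also called. ZNF106 had a log2 fold change of 0.55 (SE 0.12, adjusted p = 8.69e-05, mean normalized count 1050.5) in the authors' deposited table. Its rRNA-depleted change of 0.42 had the same sign and missed the threshold. ZNF217 was higher by 0.85 (adjusted p = 0.0417) and ZNF131, a factor with a BTB domain, by 0.31 (adjusted p = 0.0494) in the authors' deposited table. In rRNA-depleted RNA ZNF131 changed by 0.46 (limma adjusted p = 0.482), with overlapping libraries.

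On the lower side the 6 largest falls in the authors' deposited table were those of ZNF74, ZNF483, ZNF707, ZNF407, ZNF232 and ZNF85. ZNF74 had a log2 fold change of -2.54 (SE 0.77, adjusted p = 0.00765) from a mean normalized count of only 3.502 in the authors' deposited table. Its TPM in rRNA-depleted RNA, 4.53, 6.62 and 9.58 TPM in wild type and 2.14, 3.94 and 1.03 TPM in knockout, did not overlap and did not pass the test (log2 change -1.41, limma adjusted p = 0.102). ZNF74 was called lower there in 3 of 16 alternatives, among them quantile normalization (limma adjusted p = 0.0384) and voom on recovered reads (0.0103). ZNF483, ZNF707 and ZNF407 had log2 fold changes of -1.70, -1.41 and -1.38 from mean normalized counts of 6.28, 6.69 and 6.19 in the authors' deposited table. In rRNA-depleted RNA ZNF707 and ZNF85 were not called (log2 changes -0.62 and -1.06, limma adjusted p = 0.121 and 0.204). ZNF707 was called lower with median ratio scaling, quantile normalization and voom (limma adjusted p = 0.0423, 0.0381 and 0.00115). ZNF85 was called lower with the GC trend removed and with voom (limma adjusted p = 0.0218 and 0.04). ZNF232, at 31.6 counts, had the lowest adjusted p of the 6, with a log2 fold change of -0.93 (SE 0.24, adjusted p = 0.0014) in the authors' deposited table. In rRNA-depleted RNA ZNF483, ZNF407 and ZNF232 went the other way and were not called. Their log2 changes there were 0.25, 0.87 and 1.10 (limma adjusted p = 0.826, 0.161 and 0.296). ZNF268, a KRAB gene with a role in blood cell development, was lower by 0.80 on the log2 scale (SE 0.19, adjusted p = 0.000375) in the authors' deposited table, while its rRNA-depleted change was 0.69 (limma adjusted p = 0.356).

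The 2 library types shared few calls. Of the 283 members with a test in both, 8 were called in both, 58 in rRNA-depleted RNA only, 24 in poly(A) RNA only and 193 in neither. Across these 283 genes Spearman's rho between the 2 changes was 0.11, against 0.19 over 12498 genes, given as a description of genes that share the same libraries. Whether a gene's change differed between the library types was not tested, since the kits, depth and units differ and single poly(A) libraries have no values here. ZNF708, which fell most in rRNA-depleted RNA, had a log2 fold change of -0.03 (SE 0.32, adjusted p = 0.97) and ZNF281, which rose most, one of 0.13 (SE 0.14, adjusted p = 0.588) in the authors' deposited table. ZNF714, with a mean normalized count of 54.03, had one of -0.14 (SE 0.16, adjusted p = 0.593) in the authors' deposited table.

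**Figure D4:**
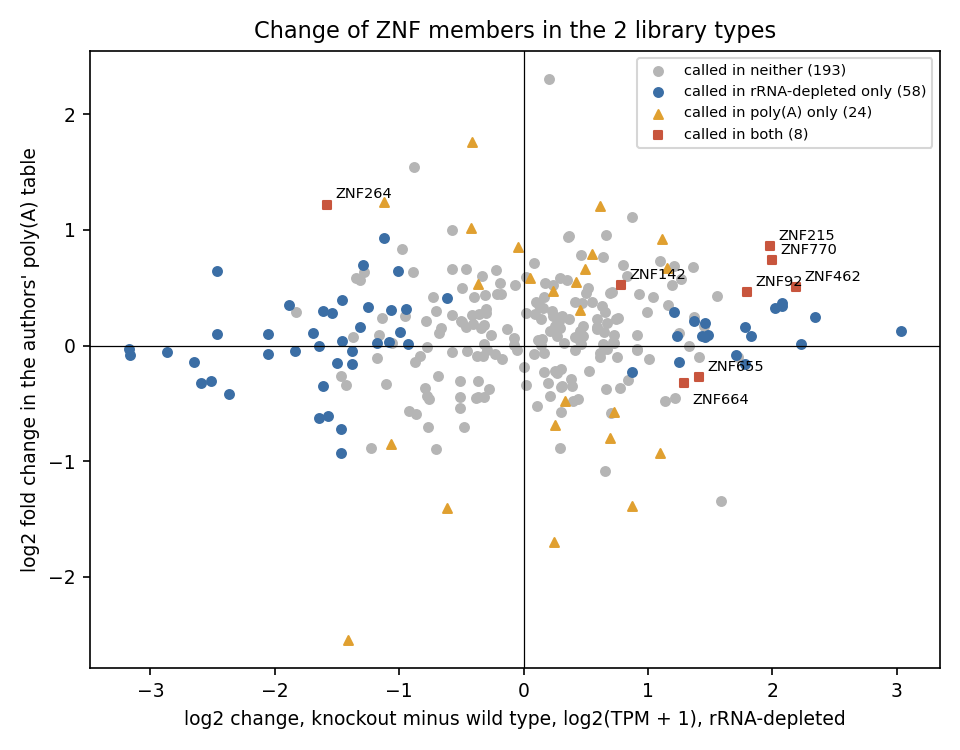
Log2 change in rRNA-depleted RNA (x axis, knockout minus wild type, log2(TPM + 1)) against the log2 fold change in the authors' deposited poly(A) table (y axis) for the 283 members with an adjusted p in both. Each point is 1 gene, and colour and shape give the library type in which it was called. The 8 squares are called in both in the main run, 5 of them higher in both and 3 with opposite signs. No point called in both lies in the lower left in that run, while ZNF74, ZNF707 and ZNF85 were called lower in both in some alternative runs.

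Of the 8 members called in both types, 5 were higher in both: ZNF462, ZNF215, ZNF770, ZNF92 and ZNF142. If the deposited fold change had wild type as its numerator, these 5 would have opposite signs and the other 3 the same sign. ZNF215, a SCAN and KRAB gene in the imprinted region of chromosome 11, read 7.04, 2.57 and 2.97 TPM in wild type and 13.3, 18.4 and 20.9 TPM in knockout (log2 change 1.98, SE 0.51, limma adjusted p = 0.0341). ZNF770 read 13.02, 20.9 and 6.604 TPM and 59.8, 63.95 and 43.9 TPM (log2 change 2.002, SE 0.49, limma adjusted p = 0.0299). In both genes all knockout libraries were above all wild-type ones. Without wild-type library 2 or 3 the limma adjusted p of ZNF215 was 0.0576 or 0.0726, and that of ZNF770 was 0.0672 without wild-type library 1. Both calls were also lost with median ratio scaling (limma adjusted p = 0.0586 and 0.0556) and with the GC trend removed, where the log2 changes were 1.02 and 0.79 (limma adjusted p = 0.192 and 0.302), and that of ZNF215 with quantile normalization (limma adjusted p = 0.0588). The log2 fold changes in the authors' deposited table were 0.86 for ZNF215 (SE 0.18, adjusted p = 2.47e-05) and 0.74 for ZNF770 (SE 0.21, adjusted p = 0.00376). ZNF92, a KRAB gene of chromosome 7, read 4.03, 5.89 and 6.82 TPM and 26.7, 23.4 and 18.4 TPM (log2 change 1.80, limma adjusted p = 0.0201), and ZNF142 read 28.4, 26.6 and 28.2 TPM and 54.2, 48.2 and 46.2 TPM (log2 change 0.79, limma adjusted p = 0.0185). For ZNF462, ZNF92 and ZNF142 the authors' deposited table gives log2 fold changes of 0.50, 0.46 and 0.52. The calls on ZNF142 and ZNF92 in rRNA-depleted RNA were lost with median ratio scaling (limma adjusted p = 0.0842) and with the GC trend removed (limma adjusted p = 0.381) respectively.

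The other 3 members called in both types had opposite signs. ZNF264, a KRAB gene at the distal end of chromosome 19, fell in rRNA-depleted RNA from 25.4, 25.6 and 32.96 TPM to 8.29, 9.84 and 8.25 TPM (log2 change -1.58, SE 0.26, limma adjusted p = 0.0094), while the authors' deposited table has it higher by 1.22 (SE 0.42, adjusted p = 0.0231). ZNF664 rose from 27.9, 42.4 and 32.1 TPM to 100.4, 88.99 and 74.4 TPM (log2 change 1.29, SE 0.23, limma adjusted p = 0.0126), and ZNF655 from 17.7, 16.01 and 16.4 TPM to 43.9, 44.7 and 47.7 TPM (log2 change 1.41, SE 0.19, limma adjusted p = 0.0057). In the authors' deposited table both were lower, ZNF664 with a log2 fold change of -0.32 (adjusted p = 0.00409) and ZNF655 with -0.28 (adjusted p = 0.0467). With the GC trend removed the rRNA-depleted changes of ZNF664 and ZNF655 kept their sign and were not called (limma adjusted p = 0.0928 and 0.25). Exons of ZNF664 overlap those of CCDC92 and RFLNA in GENCODE 29, and exons of ZNF655 overlap FAM200A.

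Such overlaps were common. In GENCODE 29 the exons of 60 members overlapped another gene on the same strand and those of 100 on the opposite strand, and 149 members had no overlap. Of the 69 called members 34 had an overlap, near the share over all members (142 of 291). Among these 34 were ZNF142 with BCS1L, ZNF146 with ZNF565, ZNF215 with ZNF214, ZNF654 with CGGBP1, ZNF771 with DCTPP1 and ZNF263 with TIGD7. Of the 149 members with no overlap 11 rose and 24 fell, near the shares over all 291 (26 and 43). The counting's use of strand is not given in the sources used here, and near-identical paralogs may share reads, so the values of overlapping and closely duplicated members are uncertain.

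The proteins through which KRAB zinc fingers act were read from a list of 17 corepressor genes, all of them tested. Of these 7 rose (NCOR1, HDAC2, TASOR, CBX5, ATF7IP, DNMT1 and CBX1) and 1 fell in rRNA-depleted RNA by limma, or 41.2% and 5.9%, where 22.9% and 12.4% of all genes tested rose and fell. Their median mean normalized count in the authors' deposited table was 159. Of genes with 50 counts or more there and at least 1 TPM in all 6 libraries, 43% rose and 9.7% fell. The share of corepressor genes that rose was thus near that of genes at a like level. The corepressor gene that fell was TRIM28, which KRAB domains bind, at 609, 577 and 715 TPM in wild type and 407, 381 and 400.2 TPM in knockout (log2 change -0.67, SE 0.12, limma adjusted p = 0.013). SETDB1, the histone H3 lysine 9 methyltransferase, read 9.99, 7.29 and 5.91 TPM and 10.9, 11.2 and 11.8 TPM and was not called (log2 change 0.54, limma adjusted p = 0.319). ATF7IP, the partner that stabilizes SETDB1, rose from 26.9, 25.9 and 25.4 TPM to 50.8, 54.4 and 49.9 TPM (log2 change 0.95, limma adjusted p = 0.0102). In the authors' deposited table ATF7IP was higher as well, with a log2 fold change of 0.95 (adjusted p = 4.53e-12). CBX3 was the only other gene of the list called in the authors' deposited table, at 0.28 (adjusted p = 0.0388).

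Related zinc finger families were counted beside the ZNF genes. Among 74 ZFP, ZSCAN, ZKSCAN and ZBTB genes tested, 13 rose (17.6%) and 7 fell (9.5%), beside 22.9% and 12.4% of all genes tested, with a median log2 change of 0.37 against 0.41 for all genes. The ZBTB genes, whose BTB domain lets proteins pair, were 37 of the 74 and made up 9 of the 13 that rose and 5 of the 7 that fell. Their shares, 24.3% higher and 13.5% lower, were near those of all genes tested. ZNF genes outside the membership rule had a median log2 change of 1.18, with 16 higher and 6 lower calls of 114 tested, but they reached the test by passing 1 TPM in 3 libraries and so could enter through the genotype in which they are high. ZNF248, just outside the rule, read 0.972, 5.68 and 1.64 TPM in wild type and 11.96, 12.4 and 13.3 TPM in knockout and was not called (log2 change 2.07, limma adjusted p = 0.0582).

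Promoters of the members, the 250 bases before the annotated start, were read from a RefSeq table on GRCh38.p14 that matched 259 of the 291 genes. The core of the site bound by ETS factors, CCGGAAG on either strand, was present in 83 of them (32.0%), against 8.8% of all 27305 promoters and 17.2% of those of other protein-coding genes with at least 1 TPM in all 6 libraries. Within the members it was found in 30.4% of those that rose, 37.5% of those that fell and 31.1% of those not called. The shares of other motifs follow for members, all promoters and the other expressed protein-coding genes in turn. TATAAA was present in 3.9%, 11.1% and 4.7%, a short form of the interferon-stimulated response element in 1.2%, 3.1% and 2.3%, and a core of the ZNF143 binding site in 1.5%, 0.2% and 0.6%. Median GC content was 61.6% for members, 58.0% for all promoters and 65.6% for the other expressed genes. The cyclic AMP element TGACGTCA was present in 3.5%, 1.8% and 3.2%, the YY1 core AAGATGG in 3.5%, 3.8% and 3.5%, and the NRF1 site in 1.9%, 1.1% and 2.2%. Beside the other expressed genes, the members' shares of TATAAA, the cyclic AMP element, the YY1 core and the NRF1 site were close to the background. Both strands were searched, and none of these motifs contains another. A match is a description of the letters and not evidence of binding. The promoters below are those of the member that rose most, the member that fell most, and a pair that was higher in both library types, with capitals for a match (TTTATA, the reverse complement of TATAAA, in ZNF708 and CCGGAAG in ZNF215) and with no match to any of these motifs in ZNF281 and ZNF770. They are ZNF281 (chr1:200410037-200410286, minus strand), ZNF708 (chr19:21329411-21329660, minus strand), ZNF215 (chr11:6926176-6926425, plus strand) and ZNF770 (chr15:34988288-34988537, minus strand).
ZNF281 promoter: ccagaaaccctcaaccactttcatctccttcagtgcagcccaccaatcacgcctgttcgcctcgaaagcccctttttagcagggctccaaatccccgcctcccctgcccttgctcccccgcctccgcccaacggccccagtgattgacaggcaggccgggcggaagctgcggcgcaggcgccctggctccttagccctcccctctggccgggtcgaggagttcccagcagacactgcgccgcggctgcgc
ZNF708 promoter: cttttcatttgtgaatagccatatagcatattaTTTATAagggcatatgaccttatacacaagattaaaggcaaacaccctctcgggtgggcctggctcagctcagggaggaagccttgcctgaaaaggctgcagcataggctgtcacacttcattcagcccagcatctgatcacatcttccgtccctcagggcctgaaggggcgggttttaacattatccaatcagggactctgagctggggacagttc
ZNF215 promoter: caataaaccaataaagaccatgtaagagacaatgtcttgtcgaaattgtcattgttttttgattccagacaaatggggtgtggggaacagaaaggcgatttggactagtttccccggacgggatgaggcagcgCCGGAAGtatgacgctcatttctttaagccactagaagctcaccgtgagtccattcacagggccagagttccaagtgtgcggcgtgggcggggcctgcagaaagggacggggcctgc
ZNF770 promoter: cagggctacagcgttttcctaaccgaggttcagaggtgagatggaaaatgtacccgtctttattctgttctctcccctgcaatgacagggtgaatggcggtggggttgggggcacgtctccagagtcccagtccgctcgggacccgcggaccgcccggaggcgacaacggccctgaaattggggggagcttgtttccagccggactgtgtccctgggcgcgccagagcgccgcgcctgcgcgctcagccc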

How the data were processed

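HMC3 RNA was profiled in 16 libraries. Per the submitters' processing notes, Trimmomatic, STAR and DESeq2 were used with hg38; versions, the annotation and the use of strand in counting are not given in the sources used here. The authors deposited TPM for the 6 rRNA-depleted libraries. The poly(A) file holds 1 comparison, deposited without values of single libraries. Per the file headers its columns are a mean normalized count (treated as a signal), the log2 fold change, its standard error, a Wald score, and raw and adjusted p-values. The deposited log2 fold change does not name its numerator, and positive was taken as higher in knockout.

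Groups came from sample titles. The test was limma's (version 3.58.1, R 4.3.3, lmFit and trended eBayes), on TPM after adding a pseudocount of 1 and taking log2. The 14789 genes that reached 1 TPM in 3 or more libraries were tested, with Benjamini-Hochberg adjustment at 0.05 over all of them. The step was also run on simulated reads with a fixed spread and few changed genes. These settings differ from the data, so that run could not show how often calls here are wrong. Reads were recovered from TPM with GENCODE 29 exon lengths, available for 93.8% of genes, and 90.9% of values came out whole to within 0.02 reads. Knockout libraries 1 and 2 were averaged because their reads did not differ by a chi-square test over genes with at least 10 reads. GC content is that of the longest transcript. Tables were handled in Python 3.11.15 (pandas 2.3.3, numpy 2.4.6) and plots drawn with matplotlib 3.10.9.

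The members, gene lists and comparisons were chosen with earlier results of these data known. Named members were, by rule, the 10 with the highest mean TPM, the 6 highest and 6 lowest called changes in each library type, those called in both types, those with an established role and the 3 on each side of 1 TPM. Alternatives were other scalings, pseudocounts, filters and thresholds, removal of the GC trend, voom on recovered reads, separate libraries with and without a replicate block, and leaving out libraries. Members were to be grouped by protein domains, which was not done here.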

Additional observations from a re-analysis of the deposited data

How the results depend on the processing

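Against 26 higher and 43 lower members in rRNA-depleted RNA, the higher count was 41 with the 6 libraries as separate samples, 14 with median ratio scaling, 16 with quantile normalization, 6 with the GC trend removed, 4 at an adjusted p under 0.01, 42 among the 402 ZNF genes with a mean of at least 1 TPM, and 1 to 22 when libraries were left out. The lower count was 65 with the GC trend removed, 84 with voom on recovered reads, 19 at an adjusted p under 0.01, and 14 to 43 when libraries were left out. The low ends came from leaving out knockout libraries, which leaves 1 knockout sample that is assumed to vary like the others. Of the 26 and 43 calls, 14 and 43 were kept with median ratio scaling, 5 and 37 with the GC trend removed, and 26 and 43 with voom, and no called member changed sign. Over all genes tested there were 3382 higher and 1838 lower calls, and these moved too. They became 4633 and 2247 with separate libraries, 3864 and 3509 with voom, and 1401 and 841 at an adjusted p under 0.01.

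The median log2 change of 0.14 turned to -0.18 with median ratio scaling, -0.26 with quantile normalization, -0.21 with voom and -0.50 with the GC trend removed, was 0.26 among ZNF genes with a mean of at least 1 TPM, and ranged from -0.002 to 0.178 when libraries were left out (lowest without wild-type library 1). Relative to all genes tested it was negative in each alternative run, at -0.37 and -0.17 with pseudocounts of 0.1 and 5, -0.52 with the GC trend removed, -0.15 for a mean of at least 1 TPM and -0.432 to -0.275 when libraries were left out. ZNF91 moved from 0.02 to -1.14 with the GC trend removed. The cause of these shifts was not tested.

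The authors' deposited table of poly(A) RNA has, in place of 20 and 12, higher calls for 9 members and lower ones for 7 below 0.01, 5 and 4 when the fold must also reach 1 on the log2 scale in size, and 12 and 5 among genes with a mean normalized count of 50 or more. With a replicate block on the 6 libraries 29 members were higher and 44 lower, against 41 and 51 without it. Same-numbered libraries had correlations of 0.02, -0.02 and 0.008 and did not each correlate best with their own number. Libraries of unlike number gave values from -0.038 to 0.027. No pairing was seen, but with so few reads per gene these values could not show whether the numbers pair the libraries. At a median of 6 to 25 reads per member and library, small changes were not detectable.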

Other observations

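The following members were picked after their values were seen, to show called genes with known roles that the sections above leave out. ZNF451, a SUMO ligase, read 14.2, 7.56 and 11.3 TPM in wild-type and 30.01, 37.4 and 28.7 TPM in knockout rRNA-depleted libraries (log2 change 1.46, limma adjusted p = 0.0257). ZNF185, a LIM-domain protein of the actin cytoskeleton, read 35.3, 38.7 and 47.3 TPM and 100.3, 95.6 and 95.3 TPM (log2 change 1.25, limma adjusted p = 0.00589). ZNF473 (ZFP100), which belongs to the machinery that cuts histone pre-mRNA, read 8.21, 4.501 and 2.604 TPM and 18.95, 19.5 and 17.8 TPM (log2 change 1.78, limma adjusted p = 0.0456). Each of the 3 genes rose without overlap between genotypes. In the authors' deposited poly(A) table their log2 fold changes were 0.20, -0.14 and -0.16, and none was called there (adjusted p = 0.361, 0.7 and 0.497). Alternative runs are not given for these 3 genes. Of all 26 higher calls, 14 were kept with median ratio scaling and 5 with the GC trend removed. Exons of ZNF473 overlap VRK3 and those of ZNF451 overlap ZNF451-AS1, on the opposite strand.

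Some members were called in poly(A) RNA alone. ZNF445, which guards imprinted regions, had a log2 fold change of 0.47 (SE 0.17, adjusted p = 0.0404) in the authors' deposited table, beside overlapping TPM of 33.4, 21.04 and 26.6 TPM and 34.7, 34.7 and 28.6 TPM. ZNF260 had one of 0.66 (SE 0.16, adjusted p = 0.000454) and ZNF84 one of -0.58 (SE 0.14, adjusted p = 0.000553) in the authors' deposited table. ZNF84 went the other way in rRNA-depleted RNA, at 11.2, 9.78 and 8.18 TPM and 15.5, 14.7 and 18.3 TPM without overlap, and did not pass the test there (log2 change 0.73, limma adjusted p = 0.13). Whether these differences between library types exceed their error was not tested.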
